A study of Gallus gallus with 24 samples.

Results

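Retinal pigment epithelium (RPE) isolated from E14 chick embryos was compared with RPE isolated from E7 embryos, after both had been cultured in SF3 with serum. The comparison used 6 of the 24 arrays of the series, 3 for each age, picked by the age and medium in their labels, and all 38439 probe sets that were not hybridization controls. The RPE came from White Leghorn embryos and was grown as a primary culture on Transwell filters, with the serum-free medium SF3 on the apical side and SF3 supplemented with bovine pituitary extract on the basal side. In the 2 groups compared, fetal bovine serum was also added on the basal side. The study used the same lot of serum for all its arrays. It reported that lots differed in their effects on gene expression in its later RT-PCR work, so values with serum hold for this lot. Age was the age of the embryo when the cells were isolated, not the time in culture. The other 18 arrays held the same 2 ages in SF3 without serum, in SF3 conditioned by E14 neural retinas (rcSF3), and in rcSF3 with serum. Each array came from RPE pooled from 6 filters, and the 3 arrays of a group were separate biologic repeats. The sources used here do not state the sex of the embryos in a pool.

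The RPE is a pigmented monolayer between the neural retina and the choroid. Its apical microvilli reach the photoreceptors, whose retinoids it recycles through the visual cycle and whose shed outer segments it engulfs and digests in lysosomes. Its tight junctions and membrane transporters form the outer blood-retinal barrier. In the chick, pigment and the first junctions appear early, and the barrier and the visual cycle mature later in embryonic life, as photoreceptors form. The question put to these arrays was which genes still differed between the younger and the older RPE when both were bathed in the same medium with serum.

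The defining genes of RPE were present in every culture. RPE65, the isomerase of the visual cycle, had signals of 21315, 23621 and 24765 on the E14 arrays, against 15616, 14929 and 13718 on the E7 arrays, and bestrophin (BEST1) had signals of 6852, 7618 and 5930 in E14 cultures, compared with 6335, 5377 and 4709 in E7 cultures. Over probe sets with a mean signal of at least 100, the log2 signals of 2 arrays of the same age correlated at 0.978 to 0.985, and those of 2 arrays of different age at 0.946 to 0.958. The median signal of the 6 arrays lay between 89.3 and 103, and no array stood apart. The log2 ratio of the 3' to the 5' control probe set of actin was 0.40 ± 0.067 on the E14 arrays and 0.37 ± 0.058 on the E7 arrays (SD, n = 3 each), and that of GAPDH was -0.13 ± 0.043 and -0.094 ± 0.034. A total RNA sample cannot tell fewer cells that express a gene from less of its RNA in each cell, so every level below is a level per culture.

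Of the 38439 probe sets, 2383 were higher and 2580 were lower in E14 than in E7 cultures at an adjusted p below 0.05 (limma), together 12.9% of those tested. The groups of 3 arrays did not overlap for 28.1% of the probe sets. Reduced to 1 probe set for each of 13009 genes, 1240 genes were higher (9.53%) and 1468 were lower (11.3%), and 271 of the higher and 214 of the lower genes differed at least 2-fold. The median log2 difference of all genes was -0.04. These are the shares against which the counts in each group of genes below were read. A list whose counts lie near these shares is described for its members only, not as a result about the list. The brightest probe set stood for a gene with several, and the mean of all of them was one of the alternatives. An alternative is named below where it ended a call, turned a direction or moved a value by over 1.5 times. List counts of 1 or 2 moved by 1 or 2 genes under several of them.

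**Figure D1:**
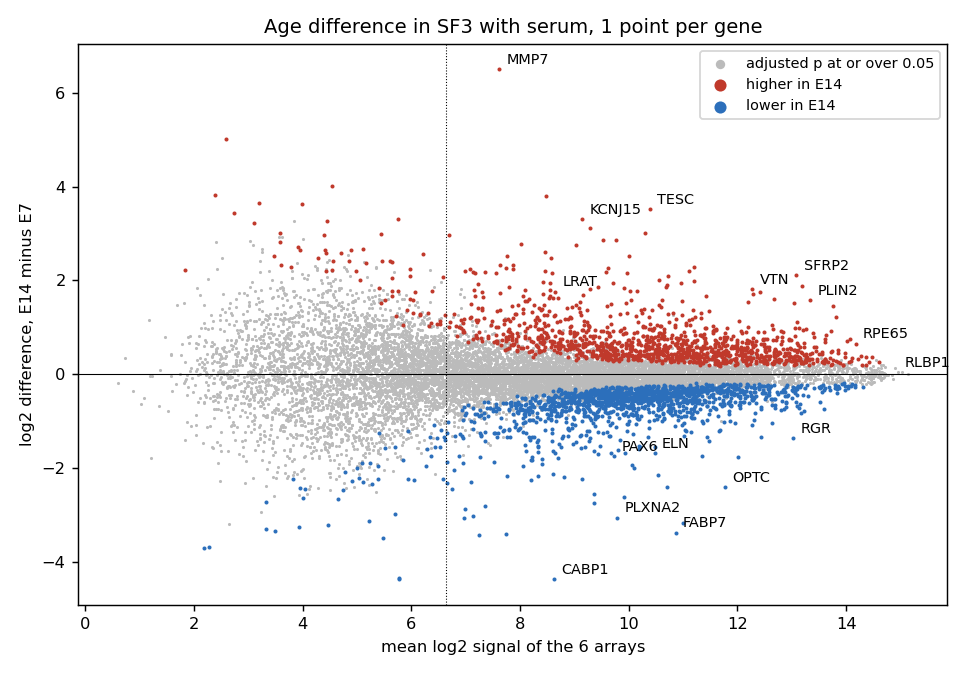
Age difference of each of 13009 genes in SF3 with serum. The x axis is the mean log2 signal of the 6 arrays and the y axis is the log2 difference, E14 minus E7, with colored points for the 1240 higher and 1468 lower genes. The dotted line marks a signal of 100, left of which the differences scatter widely, and RLBP1 lies near 0 at the bright end.

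The largest differences in favor of E14, ranked among genes that passed and whose 2 ages did not overlap, were in genes of very different function. MMP7, a secreted matrix metalloproteinase, had signals of 4023, 1608 and 1006 in E14 and 57.5, 7.09 and 21.5 in E7, so that it was bright in every E14 culture and below 100 in every E7 culture. With signals below 100 raised to 100, its log2 difference was 4.22, against 6.50 as measured. TESC, a calcium-binding protein that regulates a sodium-proton exchanger, had signals of 4175, 4719 and 4847 on the E14 arrays, against 464, 407 and 331 on the E7 arrays (log2 difference 3.53 ± 0.19, SE, adjusted p = 1.1e-11). The inward-rectifier potassium channel KCNJ15 had 2032, 2102 and 1340 in E14 cultures, compared with 247, 173 and 137 in E7 cultures, and its relative KCNJ2 had 1104, 936 and 708 in E14 and 173, 148 and 163 in E7. For both channels the dimmest E14 culture was well above the brightest E7 culture. ADGRV1, the giant adhesion receptor that is mutated in a form of Usher syndrome in humans, had 2120, 2032 and 1465 on the E14 arrays, against 248, 189 and 206 on the E7 arrays. HTR1E, a serotonin receptor, had 3574, 3706 and 3405 in E14 cultures, compared with 455, 529 and 361 in E7 cultures, and TPH1, which makes the first intermediate of serotonin and melatonin synthesis, had 747, 2165 and 1554 in E14 and 299, 106 and 253 in E7. The call of TPH1 depended on single arrays: its age difference no longer passed the test without E14 array 2 (adjusted p = 0.0505) or E7 array 2 (adjusted p = 0.0602). DPP10, a regulatory subunit of potassium channels, had 2286, 2020 and 1686 on the E14 arrays, against 239, 278 and 305 on the E7 arrays. The epoxide hydrolase EPHX3 had 1135, 888 and 656 in E14 cultures, compared with 162, 138 and 132 in E7 cultures, and ABCB1, the multidrug efflux pump of epithelial and endothelial barriers, had 558, 654 and 403 in E14 and 105, 99.2 and 110 in E7. MBP, best known from myelin, had 756, 701 and 578 on the E14 arrays, against 164, 61.0 and 95.3 on the E7 arrays. The other 4 of the 15 were C6orf58, C1QTNF6, CPNE9 and CLCA2, with log2 differences of 2.32 to 3.66 after signals below 100 were raised to 100. With the mean of all probe sets of a gene, the log2 difference was 1.89 for ADGRV1, against 3.12 in the brightest, and 1.66 for MBP, against 2.78.

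The 15 largest differences in the other direction, chosen alike, included several genes known from the neural retina or from signaling in the early eye. CABP1, a neuronal calcium sensor, had signals of 100, 75.4 and 87.8 in E14 cultures, compared with 1758, 1624 and 2064 in E7 cultures (log2 difference -4.37 ± 0.39, SE, adjusted p = 4.5e-08). FABP7, a fatty acid binding protein of neural progenitors and glia, had 723, 372 and 718 in E14 and 6158, 5139 and 6814 in E7. PENK, the precursor of enkephalins, had 832, 490 and 771 on the E14 arrays, against 7010, 5839 and 5519 on the E7 arrays, and PLXNA2, a receptor for semaphorins, had 267, 306 and 350 in E14 cultures, compared with 2526, 2682 and 2458 in E7 cultures. In each of these genes the brightest E14 culture was well below the dimmest E7 culture. VSX1, a homeobox factor of retinal bipolar cells, had 470, 350 and 356 in E14 and 2979, 1598 and 2780 in E7. FGF1, the acidic fibroblast growth factor, had 248, 241 and 334 on the E14 arrays, against 1747, 1383 and 1682 on the E7 arrays, and opticin (OPTC), a vitreous proteoglycan made by the ciliary epithelium, had 1474, 1476 and 1631 in E14 cultures, compared with 7937, 8793 and 7619 in E7 cultures. IL13RA2, a decoy receptor for interleukin 13, had 1015, 720 and 524 in E14 and 4488, 3305 and 3781 in E7. CYP24A1, the enzyme that inactivates vitamin D, had 263, 230 and 270 on the E14 arrays, against 3007, 1140 and 1431 on the E7 arrays, and the growth factor midkine (MDK) had 128, 167 and 161 in E14 cultures, compared with 667, 586 and 809 in E7 cultures. GNB3, a transducin subunit of cone photoreceptors, had 40.6, 105 and 66.7 in E14 and 588, 646 and 903 in E7, and its call was lost without E14 array 1 (adjusted p = 0.051). The remaining 4 were TINAGL1, AMY1AP, DMRT3 and SLC25A25, with log2 differences of -2.30 to -2.18 after signals below 100 were raised to 100. With the mean of all probe sets, FGF1 did not pass (log2 -1.12, adjusted p = 0.196, against -2.56 in the brightest), and CABP1 and IL13RA2 passed with smaller differences (-2.09 and -1.43).

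**Figure D2:**
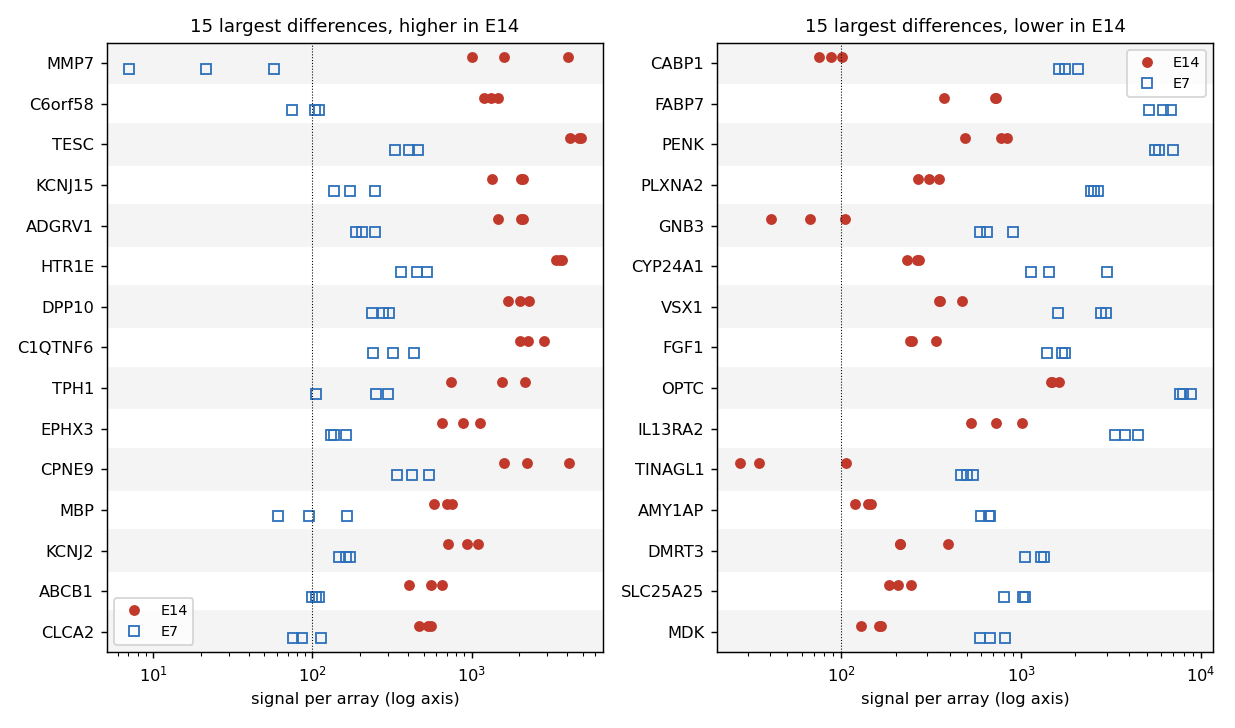
Signals of the 15 genes with the largest difference in each direction, on a log axis. Each row is a gene with the 3 E14 cultures as filled circles above the 3 E7 cultures as open squares, and the dotted line marks a signal of 100. The 2 ages do not overlap in any row, because only genes without overlap were ranked. Several signals of the dimmer age lie at or below 100.

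In the visual cycle, 3 of 16 measured genes were higher in E14, 2 were lower and 11 did not pass the test, with a median log2 difference of 0.10. The higher count was 5 among genes with a mean signal of at least 100. RPE65 differed by 0.65 ± 0.11 (log2, SE, adjusted p = 0.00024). LRAT, which makes the retinyl esters that RPE65 uses, had 632, 884 and 715 on the E14 arrays, against 199, 250 and 208 on the E7 arrays and differed by 1.76 ± 0.25 (adjusted p = 2.6e-05). Transthyretin (TTR), a carrier of retinol and thyroid hormone, had 20625, 23233 and 23873 in E14 cultures, compared with 11590, 15690 and 12877 in E7 cultures (log2 0.76, adjusted p = 0.00024). The lower pair was RGR, the opsin of RPE and Müller cells, with 3592, 5540 and 7126 in E14 and 13742, 13461 and 12928 in E7, and the retinol dehydrogenase RDH11 with 4532, 5105 and 6346 on the E14 arrays, against 6839, 9665 and 8846 on the E7 arrays. RGR was also the most variable of these genes among the E14 cultures, and its 3 E14 signals stayed below the dimmest E7 signal. RLBP1, the retinaldehyde-binding protein, had 29037, 34611 and 32799 in E14 cultures, compared with 29125, 33668 and 31069 in E7 cultures, and STRA6, the receptor for retinol-binding protein, had 12862, 13554 and 15540 in E14 and 14281, 16440 and 15288 in E7. Those ranges overlapped (adjusted p = 0.86 for RLBP1 and 0.52 for STRA6). RLBP1 lay close to the brightest signal of any probe set on an array, which was 32923 to 39362 over the 6 arrays. Whether signals that bright could still show a difference was not tested. Nor was it tested for other bright genes, such as TTR, TYRP1, OTX2, SLC2A1 and SCARB1. BEST1, a chloride channel of the basolateral membrane, differed by 0.32 (adjusted p = 0.061), and passed without E14 array 3 (adjusted p = 0.0249) or E7 array 1 (adjusted p = 0.0151). It also passed among genes with a mean signal of at least 100 (adjusted p = 0.0328) and with a replicate block (adjusted p = 0.0312).

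Of 23 measured genes of the melanosome, 7 were higher and 4 were lower, with a median of -0.01, and the lower count was 2 in a fit of the 6 arrays with a replicate block. Tyrosinase (TYR), the first enzyme of melanin synthesis, had 12903, 12184 and 12238 on the E14 arrays, against 9868, 9310 and 8213 on the E7 arrays (log2 0.45 ± 0.07, adjusted p = 0.00012), whereas TYRP1, a later enzyme, had 20568, 23804 and 23636 in E14 cultures, compared with 22233, 22327 and 23240 in E7 cultures and overlapped (adjusted p = 0.99). MLANA, a melanosome maturation protein, had 2749, 3894 and 3938 in E14 and 1297, 1330 and 944 in E7. EDNRB, an endothelin receptor of pigment cells, had 1252, 1126 and 1350 on the E14 arrays, against 657, 361 and 611 on the E7 arrays. GPR143, which controls melanosome size, was higher by 0.37 and SLC24A5, a melanosomal ion exchanger, by 0.80 on the log2 scale. SLC24A5 did not pass with the mean of its probe sets (log2 0.33, adjusted p = 0.0933). The largest difference downward was that of OCA2, the melanosomal anion channel, with 170, 312 and 298 in E14 cultures, compared with 734, 706 and 672 in E7 cultures, and MREG, which acts in melanosome transport, differed by -0.74. RAB38, a small GTPase of melanosome biogenesis, was higher by 0.67 (adjusted p = 0.043), a call that was lost without any of E14 arrays 1 and 2 and E7 arrays 1 and 3 (adjusted p up to 0.23). RAB38 also did not pass with only the 12 arrays of SF3, with the floor of 100, without a mean-variance trend or in an unmoderated fit (adjusted p = 0.0656 to 0.0958).

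None of the 25 measured transcription factors of the eye field and RPE was higher in E14 and 8 were lower, with a median log2 difference of -0.37. The counts stayed at 0 and 8 or 9 when any 1 array was left out, and the lower count was 7 with signals below 100 raised to 100. PAX6, which patterns the early eye, had 531, 395 and 478 in E14 and 1828, 1432 and 1457 in E7 (log2 -1.75 ± 0.18, adjusted p = 3.6e-07). RAX2, a retinal homeobox factor, had 472, 361 and 545 on the E14 arrays, against 1038, 936 and 1209 on the E7 arrays, and LHX2, which keeps the optic vesicle competent to form eye tissue, had 403, 438 and 384 in E14 cultures, compared with 698, 747 and 686 in E7 cultures. HMX1 differed by -0.87 and NR2F2, a nuclear receptor of the dorsal and RPE territory, by -0.45. SIX6, a factor of the ventral optic cup and retinal progenitors, was at 12.6, 7.70 and 17.7 in E14 and at 402, 162 and 236 in E7, so that its signal was near the floor in E14. Its log2 difference of -4.37 was -1.31 with the floor of 100, and ZIC1 differed by -2.33, or -1.18 with the floor, where it no longer passed (adjusted p = 0.0775). The 2 factors that drive RPE identity did not pass: OTX2 had 25147, 27091 and 28066 in E14 and 23483, 24647 and 25334 in E7, and MITF had 1494, 1604 and 1835 on the E14 arrays, against 1916, 1660 and 1753 on the E7 arrays (adjusted p = 0.26 and 0.73).

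**Figure D3:**
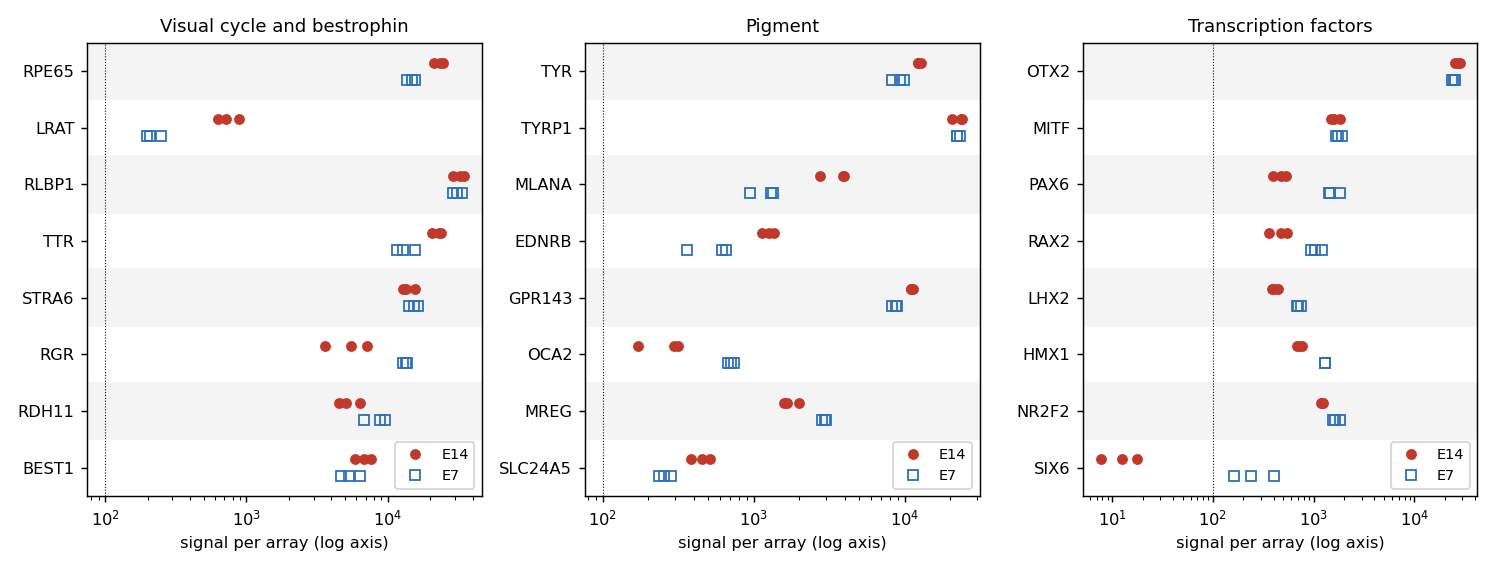
Signals of visual cycle genes and BEST1, pigment genes and transcription factors on a log axis, with the 3 E14 cultures as filled circles above the 3 E7 cultures as open squares. RPE65, LRAT, TTR, TYR and MLANA lie to the right in E14, RGR, OCA2, PAX6, RAX2 and LHX2 lie to the left, and RLBP1, TYRP1, OTX2 and MITF overlap.

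Of 23 measured genes of outer segment phagocytosis, 4 were higher and 1 was lower. The integrin subunit ITGAV, which binds outer segments with its partner beta 5, had 11979, 12259 and 11804 in E14 cultures, compared with 8340, 6921 and 7493 in E7 cultures (log2 0.67, adjusted p = 3.1e-05), and protein S (PROS1), a bridging ligand, had 2255, 2288 and 1980 in E14 and 1397, 793 and 1077 in E7. MERTK, the receptor tyrosine kinase that triggers engulfment and binds protein S, went the other way, with 419, 475 and 515 on the E14 arrays, against 777, 750 and 728 on the E7 arrays (log2 -0.68, adjusted p = 5.5e-05). LAMP2, a lysosomal membrane protein, was higher by 0.52. The kinase PRKCD was higher by 0.56 (adjusted p = 0.0067) with overlapping ranges, and did not pass without E14 array 3 (adjusted p = 0.0582) or E7 array 3 (adjusted p = 0.0639), or in a fit of the 6 arrays alone (adjusted p = 0.0622). The scavenger receptor CD36 was below 100 on all 6 arrays, and the kinase YES1 had 344, 544 and 723 in E14 cultures, compared with 401, 477 and 466 in E7 cultures (adjusted p = 0.61).

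Among 18 measured claudins and other membrane proteins of the tight junction, 4 were higher and 1 was lower, with a median of 0.18. Claudins seal the space between neighboring cells or open selective pores in it. CLDN1 had 5539, 3679 and 2879 in E14 and 842, 1260 and 978 in E7 (log2 1.94 ± 0.27, adjusted p = 1.6e-05), and CLDN5, the barrier claudin of endothelium and chick RPE, had 1584, 1962 and 2190 on the E14 arrays, against 1186, 1373 and 1079 on the E7 arrays (log2 0.65, adjusted p = 0.0015). The pore-forming CLDN2 had 804, 652 and 739 in E14 cultures, compared with 1070, 1156 and 1043 in E7 cultures (log2 -0.58, adjusted p = 0.0014), so that CLDN1 and CLDN5 were higher and CLDN2 lower in the same cultures. MARVELD3 was higher by 0.59. CLDN20 had 112, 253 and 213 in E14 and 95.8, 71.6 and 89.3 in E7, with the E7 signals below 100, and its call (adjusted p = 0.016) was lost without E14 array 2, E14 array 3 or E7 array 2 (adjusted p up to 0.11). It was also lost in fits of the 6 arrays alone (adjusted p = 0.0605, and 0.0924 with a replicate block). The same held with the floor of 100 (log2 0.86, adjusted p = 0.108) and with the mean of its probe sets (adjusted p = 0.0543). Occludin (OCLN) had 177, 205 and 140 on the E14 arrays, against 262, 296 and 208 on the E7 arrays (adjusted p = 0.14). CLDN4 and CLDN12 did not pass (adjusted p = 0.80 and 0.14), although CLDN12 did without E7 array 1 (adjusted p = 0.0441).

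Of 23 measured adaptors and polarity proteins, 1 was higher and 5 were lower, and the 5 became 3 without E14 array 2 or E7 array 1. LLGL2, a basolateral polarity protein, had 2647, 3101 and 3239 in E14 cultures, compared with 4322, 5335 and 4757 in E7 cultures (log2 -0.68, adjusted p = 1.9e-06), and the polarity scaffold PARD3 had 3147, 3291 and 3175 in E14 and 4053, 3961 and 4064 in E7 (log2 -0.33). ZO-1 (TJP1) had 803, 978 and 859 on the E14 arrays, against 956, 1009 and 877 on the E7 arrays (log2 -0.11, adjusted p = 0.67). With the mean of its probe sets it passed, at -0.46 (adjusted p = 0.0454). ZO-3 (TJP3) had 585, 636 and 688 in E14 cultures, compared with 829, 1255 and 951 in E7 cultures (log2 -0.65, adjusted p = 0.0049). This call was lost without E7 array 2 (adjusted p = 0.0549) and with the mean of its probe sets (log2 -0.59, adjusted p = 0.225). The polarity protein CRB2 did not pass (adjusted p = 0.15). Among 29 measured cadherins and catenins, 3 were higher and 3 were lower, the higher count being 1 without E7 array 3. R-cadherin (CDH4), a retinal cadherin, had 6867, 8143 and 7832 in E14 and 5649, 6337 and 4883 in E7 (log2 0.44, adjusted p = 0.0048), and this call did not pass without E7 array 3 (adjusted p = 0.0504). CTNNA2, a catenin that links cadherins to actin, was higher by 0.97, and plakoglobin (JUP) was lower, at -0.57, but not with the mean of its probe sets (-0.38, adjusted p = 0.104). CDH11 and CDH13 did not pass (adjusted p = 0.58 and 0.75).

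Of 41 measured ion channels and pumps, 4 were higher and 5 were lower, and the lower count was 3 without E14 array 1 or in a fit of the 6 arrays with a replicate block. The potassium channels KCNJ15 and KCNJ2 given above led the list, and KCNQ1, a channel of secretory epithelia, had 964, 1088 and 1265 on the E14 arrays, against 482, 640 and 522 on the E7 arrays. Downward, the 2-pore potassium channel KCNK2 had 255, 155 and 152 in E14 cultures, compared with 616, 525 and 586 in E7 cultures, the calcium pump ATP2B4 had 1402, 1319 and 1311 in E14 and 2385, 2394 and 2183 in E7, and the membrane carbonic anhydrase CA14 had 565, 669 and 843 on the E14 arrays, against 1557, 2686 and 1855 on the E7 arrays. The 2 ages did not overlap in any of these 4 genes. With the mean of all probe sets, KCNQ1 (log2 0.83, adjusted p = 0.129, against 1.01 in the brightest) and KCNK2 (-0.73, adjusted p = 0.162, against -1.66) did not pass. The subunit ATP1B1 of the sodium pump had 17691, 18942 and 19467 in E14 cultures, compared with 20576, 22319 and 21395 in E7 cultures (log2 -0.20, adjusted p = 0.062). It passed after quantile normalization (-0.24, adjusted p = 0.00356), among genes with a mean signal of at least 100 (adjusted p = 0.0229), with the floor of 100 (adjusted p = 0.0461) and in an unmoderated fit (adjusted p = 0.0463).

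Of 37 measured nutrient carriers, 7 were higher and 2 were lower. The sodium-glucose cotransporter SLC5A1 had 2511, 1761 and 1135 in E14 and 396, 348 and 328 in E7 (log2 2.26 ± 0.26, adjusted p = 1.6e-06). Among carriers of the SLC2 family, SLC2A11 had 3764, 4860 and 3648 on the E14 arrays, against 1540, 1808 and 1606 on the E7 arrays and SLC2A13, which carries myo-inositol, had 1810, 1807 and 1480 in E14 cultures, compared with 876, 676 and 790 in E7 cultures. The main glucose carrier, SLC2A1 (GLUT1), had 22794, 24556 and 25340 in E14 and 21811, 23676 and 22518 in E7 and overlapped (adjusted p = 0.45), and SLC2A8, SLC2A9 and SLC2A12 did not pass either (adjusted p = 0.68, 0.87 and 0.39). Among monocarboxylate carriers, SLC16A9 had 1026, 949 and 852 on the E14 arrays, against 294, 339 and 336 on the E7 arrays, whereas SLC16A1, SLC16A3, SLC16A8 and SLC16A12, which include the lactate carriers, did not pass (adjusted p = 0.81, 0.10, 0.87 and 0.61). The proline and glycine carrier SLC6A20 had 3023, 3679 and 2729 in E14 cultures, compared with 1352, 1450 and 1595 in E7 cultures, and the thyroid hormone carrier SLCO1C1 was higher by 0.57. The higher count was 6 or 7 with any 1 array left out, and the lower count was 0 in fits of the 6 arrays alone and without E14 array 3 or E7 array 2, and 1 without E14 array 1 or E7 array 1.

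Matrix genes went both ways, as did genes at large, of which 9.53% were higher and 11.3% were lower. In the basement membrane, 4 of 25 measured genes were higher and 4 were lower, the lower count being 2 with the mean of all probe sets. COL4A4, a collagen IV chain, had 718, 931 and 1015 in E14 and 482, 386 and 442 in E7 and the laminin chain LAMA5 had 7329, 7743 and 6461 on the E14 arrays, against 4870, 4949 and 4044 on the E7 arrays. The linker nidogen (NID1) had 1515, 1766 and 1900 in E14 cultures, compared with 3601, 2667 and 3027 in E7 cultures and perlecan (HSPG2) had 996, 885 and 816 in E14 and 1684, 1340 and 1490 in E7. HSPG2 differed by -0.74, or -0.42 with the mean of its probe sets. In the interstitial and elastic matrix, 9 of 46 were higher and 6 were lower. Vitronectin (VTN), an adhesion protein of plasma and matrix, had 9434, 9724 and 8723 on the E14 arrays, against 2663, 2810 and 2464 on the E7 arrays (log2 1.81 ± 0.17, adjusted p = 7.0e-08), the collagen cross-linking enzyme LOXL2 had 5106, 5377 and 4329 in E14 cultures, compared with 1707, 1431 and 1484 in E7 cultures, and the elastic fiber protein FBLN1 had 2510, 2703 and 3333 in E14 and 1401, 1082 and 977 in E7. EFEMP1, a fibulin that causes a macular dystrophy when mutated in humans, had 8275, 5560 and 6522 on the E14 arrays, against 3340, 3165 and 3466 on the E7 arrays. Elastin (ELN) had 845, 853 and 697 in E14 cultures, compared with 2951, 2102 and 2717 in E7 cultures (log2 -1.69 ± 0.16, adjusted p = 7.5e-08), COL5A2 had 1122, 1316 and 1346 in E14 and 3279, 2336 and 2619 in E7 (log2 -1.11, or -0.65 with the mean of its probe sets), and the microfibril proteins FBN2 and MFAP2 differed by -1.0 and -0.72. The named elastic fiber genes were split, with FBLN1 and EFEMP1 higher and ELN, FBN2 and MFAP2 lower. COL3A1 was higher by 0.65 (adjusted p = 0.020), a call lost without any of E14 arrays 1 and 2 and E7 arrays 1 and 2 (adjusted p up to 0.080). Nor did COL3A1 pass with the floor of 100, without a mean-variance trend, in an unmoderated fit or with the mean of its probe sets (adjusted p = 0.0533 to 0.068). Of 26 matrix receptors, 5 were higher and 3 were lower, the lower count being 1 without E14 array 1 or E7 array 1, without a mean-variance trend and in an unmoderated fit. The higher count was 3 in a fit of the 6 arrays. ITGB1, the common beta chain, was lower, at -0.39, while the hyaluronan receptor CD44 and the glypican GPC4 were higher, at 0.46 and 0.77, GPC4 not with the mean of its probe sets (adjusted p = 0.0776). ITGA8 did not pass (adjusted p = 0.43). ITGB1BP1, which binds the tail of ITGB1, was lower, at -0.56 (adjusted p = 0.014). It did not pass without E7 array 2 (adjusted p = 0.0676), with the mean of its probe sets (-0.33, adjusted p = 0.136) or in a fit of the 6 arrays with a replicate block (adjusted p = 0.0535).

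Of 56 measured genes of the actin cytoskeleton and microvilli, 11 were higher and 5 were lower, the higher count being 7 in a fit of the 6 arrays with a replicate block. ACTR3 and ARPC3, subunits of the Arp2/3 complex, were higher by 0.55 and 0.28, the severing protein GSN by 0.31 and the formin DIAPH2 by 0.40, or 0.83 with the mean of its probe sets. Among the lower were villin (VIL1), a bundling protein of microvilli, with 773, 828 and 915 on the E14 arrays, against 2359, 2528 and 2423 on the E7 arrays (log2 -1.54 ± 0.15, adjusted p = 1.3e-07), and espin (ESPN), another bundling protein, with 6276, 5974 and 8874 in E14 cultures, compared with 10385, 14588 and 12237 in E7 cultures. The pointed-end cap TMOD1 had 278, 359 and 451 in E14 and 809, 893 and 923 in E7. PLS3, another bundling protein, was lower, at -0.97 (adjusted p = 0.024), but not without any of E14 arrays 1 and 2 and E7 arrays 1 and 3 (adjusted p up to 0.092) or with the mean of its probe sets (adjusted p = 0.0643). The exchange factor ARHGEF4 was higher by 0.82 (adjusted p = 0.0048). FMN1 and ARHGEF16 did not pass (adjusted p = 0.059 and 0.29). FMN1 did without E7 array 1 (adjusted p = 0.0284), among genes with a mean signal of at least 100 (adjusted p = 0.0327), with a replicate block (adjusted p = 0.0473) and with the mean of its probe sets (adjusted p = 0.00864). Of 31 microtubule and intermediate filament genes, 4 were higher and 4 were lower. The lower count was 2 without E7 array 2 or E7 array 3, under either other scaling, without a mean-variance trend and in an unmoderated fit, and 1 with the mean of all probe sets. The tubulin TUBB6 had 16178, 19816 and 20411 on the E14 arrays, against 9824, 9518 and 10066 on the E7 arrays and MAP2 had 453, 491 and 384 in E14 cultures, compared with 320, 244 and 262 in E7 cultures. Stathmin (STMN1), which destabilizes microtubules, had 4405, 3736 and 4719 in E14 and 7228, 6813 and 7296 in E7 and the neuronal kinesin KIF5C had 387, 278 and 252 on the E14 arrays, against 812, 693 and 735 on the E7 arrays. KIF5C differed by -1.31 in its brightest probe set and by -0.25 with the mean of its probe sets, where it did not pass (adjusted p = 0.768). KIF3A did not pass (adjusted p = 0.99).

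The list with the highest share of calls upward was that of cholesterol synthesis and uptake, where 12 of 19 measured genes were higher in E14 and 0 were lower, with a median log2 difference of 0.61. NSDHL, a demethylating enzyme late in the pathway, had 1116, 1430 and 1326 in E14 cultures, compared with 477, 498 and 423 in E7 cultures (log2 1.47 ± 0.13, adjusted p = 5.5e-08). Squalene epoxidase (SQLE) had 4123, 5103 and 4394 in E14 and 1898, 1754 and 1711 in E7 (log2 1.34 ± 0.16, adjusted p = 2.4e-06), and DHCR7, which makes cholesterol from its last precursor, had 2147, 2504 and 2009 on the E14 arrays, against 953, 765 and 862 on the E7 arrays. MSMO1, a sterol oxidase, had 12850, 14396 and 13885 in E14 cultures, compared with 7055, 7007 and 7011 in E7 cultures. HMGCS1, the synthase at the entry to the pathway, had 2556, 2465 and 1688 in E14 and 1403, 1236 and 923 in E7, and INSIG1, which holds back the sterol-sensing transcription factors, had 3829, 3652 and 3319 on the E14 arrays, against 2256, 1814 and 1939 on the E7 arrays. In these 6 genes every E14 signal was above every E7 signal. LSS and INSIG2 were higher by 0.87 and 0.52, and HSD17B7 by 0.61, the last not without E14 array 2 (adjusted p = 0.084) or E7 array 3 (adjusted p = 0.0809). DHCR7 did not pass with the mean of its probe sets (log2 0.87, adjusted p = 0.0943, against 1.37). The count of higher genes was 9 to 11 with any 1 array left out.

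The lysosome followed, with 19 of 39 measured genes higher, 1 lower and a median of 0.23. NPC2, which hands cholesterol out of the lysosome, had 14681, 14444 and 14608 in E14 cultures, compared with 7651, 7857 and 8228 in E7 cultures (log2 0.88 ± 0.06, adjusted p = 2.9e-10). SCARB2, the receptor that brings glucocerebrosidase to the lysosome, had 738, 807 and 810 in E14 and 431, 406 and 380 in E7. Cathepsin K (CTSK) had 10777, 11818 and 11507 on the E14 arrays, against 7915, 5296 and 6276 on the E7 arrays and cathepsin Z (CTSZ) had 6335, 6647 and 6081 in E14 cultures, compared with 4163, 4291 and 3938 in E7 cultures. Acid ceramidase (ASAH1) and the proton pump subunit ATP6V1C1 were higher by 0.59 and 0.55, and the pump subunit ATP6V1C2 did not pass (adjusted p = 0.99). Cathepsin H (CTSH) was the exception, with 2081, 1782 and 1906 in E14 and 2650, 2926 and 3084 in E7. The higher count was 13 to 15 with any 1 array left out.

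Of 33 measured genes of lipid handling, 10 were higher and 4 were lower, and 6 and 2 in a fit of the 6 arrays with a replicate block. The lipid droplet coat PLIN2 had 18474, 17874 and 17510 on the E14 arrays, against 6197, 5860 and 5924 on the E7 arrays (log2 1.58 ± 0.08, adjusted p = 4.3e-12). PPARGC1A, a coactivator of oxidative metabolism, had 540, 644 and 566 in E14 cultures, compared with 325, 328 and 286 in E7 cultures, and CPT1A and CPT2, which carry fatty acids into mitochondria, were higher by 0.77 and 0.39. CPT1A did not pass with the mean of its probe sets (0.46, adjusted p = 0.245). The fatty acid binding protein FABP3 had 206, 158 and 122 in E14 and 610, 479 and 619 in E7, lower like FABP7. The higher count was 5 without E14 array 2 or E14 array 3 and 6 without E7 array 2, E7 array 3 or a mean-variance trend. Among 18 glycolytic genes, 2 were higher and 5 were lower. The hexokinases, which trap glucose in the cell, were both among the lower. HK1 had 350, 312 and 364 on the E14 arrays, against 998, 927 and 1083 on the E7 arrays. HK2 had 188, 177 and 203 in E14 cultures, compared with 597, 504 and 549 in E7 cultures. Among 36 antioxidant and glutathione genes, 9 were higher and 3 were lower. The extracellular superoxide dismutase SOD3 had 2788, 3166 and 3494 in E14 and 1386, 1251 and 1262 in E7, and GCLC, the first enzyme of glutathione synthesis, had 2358, 2380 and 2460 on the E14 arrays, against 1592, 1431 and 1524 on the E7 arrays. GCLC differed by 0.66 in its brightest probe set but did not pass with the mean of its probe sets (0.35, adjusted p = 0.522). The glutathione transferase GSTA4 was higher by 0.66, the transferase GSTM2 lower, at -0.74, and the transferrin receptor TFRC lower, at -0.74. Metallothionein genes are closely related, and the probe set annotated as MT3 had 16793, 15700 and 18009 in E14 cultures, compared with 7834, 10302 and 10428 in E7 cultures.

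**Figure D4:**
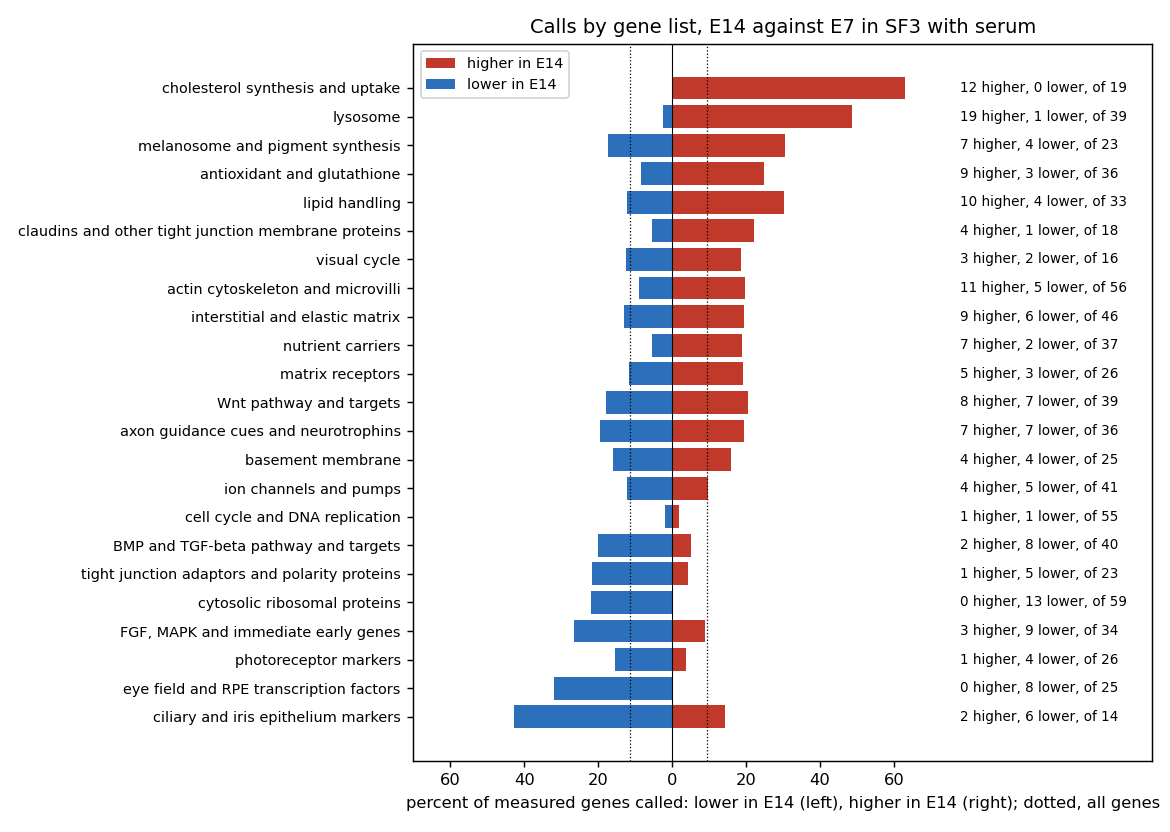
Percent of the measured genes of 23 lists that passed the test. Bars to the right are genes higher in E14, bars to the left are genes lower in E14, and the dotted lines are the percentages over all genes, 9.53 and 11.3. Cholesterol synthesis and the lysosome stand out to the right, eye field factors and ciliary markers to the left.

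Genes of secreted signals and their targets were called in both directions, beside shares over all genes of 9.53% higher and 11.3% lower. Of 34 measured genes of FGF and MAPK signaling, 3 were higher, near that share, and 9 were lower. FGF1 was given above, and its receptor FGFR4 had 387, 390 and 390 in E14 and 1021, 1004 and 955 in E7. The MAPK phosphatase DUSP5 had 7321, 6804 and 7773 on the E14 arrays, against 11182, 13492 and 13144 on the E7 arrays and the FGF target ETV5 had 1227, 1174 and 1076 in E14 cultures, compared with 2191, 2298 and 2267 in E7 cultures. Neither FGF1 nor ETV5 passed with the mean of all probe sets (adjusted p = 0.196 and 0.0529). FGF2 went the other way, with 2251, 1650 and 1921 in E14 and 1306, 1325 and 1331 in E7. In the BMP and TGF-beta pathways, 2 of 40 were higher and 8 were lower. The lower count stayed at 8 or 9 with any 1 array left out, while the higher count was 0 without E14 array 1 or E7 array 2 and 1 without any other. That higher count was also 0 with only the 12 arrays of SF3, under either other scaling and with the floor of 100. The same held without a mean-variance trend and in an unmoderated fit. BMP4, a ligand of the dorsal eye, had 1955, 1471 and 1725 on the E14 arrays, against 3424, 2610 and 3783 on the E7 arrays. The feedback inhibitors SMAD6, SMAD7 and BAMBI were lower by the test too, at -0.64, -1.25 and -0.64.

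In the Wnt pathway, 8 of 39 were higher and 7 were lower, the lower count being 3 without E7 array 1 and 4 in a fit of the 6 arrays with a replicate block. SFRP2, a secreted modulator of Wnt ligands, had 18271, 19076 and 16937 in E14 cultures, compared with 4825, 3570 and 4203 in E7 cultures (log2 2.12 ± 0.14, adjusted p = 1.7e-10). The ligand WNT9A had 3497, 3524 and 2726 in E14 and 1212, 683 and 761 in E7 and RSPO3, which amplifies Wnt signals, had 916, 587 and 593 on the E14 arrays, against 234, 124 and 181 on the E7 arrays. Of the Wnt receptors, FZD8 had 340, 307 and 261 in E14 cultures, compared with 923, 774 and 830 in E7 cultures, and FZD2 had 2108, 1640 and 1814 in E14 and 3305, 3141 and 3266 in E7. Both receptors were lower in every E14 culture, FZD8 not by the test with the mean of its probe sets (adjusted p = 0.0867), and the ligand WNT5A was lower too, at -0.80. The target AXIN2 was higher by 0.60 (adjusted p = 0.018), a call lost without any of E14 arrays 1 and 2 and E7 arrays 2 and 3 (adjusted p up to 0.094). Of 36 guidance cues and neurotrophins, 7 were higher and 7 were lower, the higher count being 4 without E14 array 2. SEMA5A had 863, 842 and 740 on the E14 arrays, against 331, 320 and 257 on the E7 arrays, and was higher where the receptor PLXNA2 above was lower. Of 33 secreted vascular and growth factors, 6 were higher and 4 were lower, the lower count being 2 with the mean of all probe sets. Adrenomedullin (ADM), a vasodilator peptide, had 20185, 21655 and 21724 in E14 cultures, compared with 12070, 13435 and 13242 in E7 cultures, and VEGFD, a lymphatic growth factor, had 1875, 1505 and 1849 in E14 and 3951, 5500 and 4724 in E7. PEDF (SERPINF1), a factor that RPE secretes, was lower, at -0.30, in its brightest probe set. The mean of its 3 probe sets gave 0.39, which did not pass (adjusted p = 0.152). The cytokine receptor IL1R1 had 3416, 3388 and 2850 on the E14 arrays, against 1630, 1474 and 1547 on the E7 arrays. The regulator HDAC9 did not pass (adjusted p = 0.78).

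Of 55 measured genes of the cell cycle, 1 was higher and 1 was lower: GMNN had 713, 780 and 809 in E14 cultures, compared with 518, 620 and 637 in E7 cultures, and PCNA had 1519, 1651 and 1789 in E14 and 2006, 2144 and 2019 in E7. GMNN did not pass without E14 array 2, E14 array 3 or E7 array 1 (adjusted p up to 0.11), or in fits of the 6 arrays alone (adjusted p = 0.0625, and 0.0627 with a replicate block). PCNA did not pass in the fit with that block (adjusted p = 0.058). The cell cycle brake BTG2 had 3029, 2131 and 1736 on the E14 arrays, against 7527, 7453 and 7774 on the E7 arrays, and FOXO1, a factor of quiescence and metabolism, had 2588, 2290 and 2288 in E14 cultures, compared with 1438, 1240 and 1323 in E7 cultures. Of 59 ribosomal protein genes, 0 were higher and 13 were lower, with a median of -0.12. RPS28 had 7552, 7370 and 7439 in E14 and 9273, 10334 and 9847 in E7 and RPS3 had 13485, 12390 and 13328 on the E14 arrays, against 15161, 17381 and 16453 on the E7 arrays. RPS28 did not pass with the mean of its probe sets (adjusted p = 0.232). This count depended on single arrays and on scaling: it was 3 without E14 array 2 or E7 array 3, 5 without E7 array 2 and 8 without E14 array 1. It was 2 after median centring, without a mean-variance trend or in a fit of the 6 arrays, which gave 3 with a replicate block. The count was 5 with only the 12 arrays of SF3, 20 among genes with a mean signal of at least 100, and 29 after quantile normalization.

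Markers of other cells that such cultures could hold were read beside these lists. Of 26 measured photoreceptor markers, 11 were below 100 on all 6 arrays, 1 was higher and 4 were lower. GNAT2, the transducin alpha subunit of cones, had 1011, 611 and 493 in E14 cultures, compared with 2158, 1623 and 2429 in E7 cultures, PDE6H had 32.0, 37.3 and 67.5 in E14 and 707, 228 and 289 in E7 and PRPH2 had 119, 85.5 and 242 on the E14 arrays, against 529, 500 and 551 on the E7 arrays. The log2 difference of PDE6H was -3.06, or -1.85 with the floor of 100. PRPH2 did not pass without E14 array 2 (adjusted p = 0.0547). The summed signal of the photoreceptor list was 9684 to 10857 in E14 and 11216 to 14133 in E7, and that of 14 ciliary and iris epithelium markers, of which 2 were higher and 6 were lower, was 46904 to 49911 in E14 and 57832 to 58724 in E7. The higher count of the ciliary list was 1 without any 1 of the 6 arrays. The sums of 15 glial and progenitor markers (29170 to 30337 in E14 and 30797 to 31884 in E7) and of 25 mesenchymal markers (17689 to 17994 in E14 and 18956 to 27719 in E7) were also lower in every E14 culture. These 4 sums were lower in E14, although the photoreceptor, glial and ciliary lists also held genes that were higher. Retina, glia, ciliary epithelium or mesenchyme also express several genes named above, and these went both ways. CABP1, VSX1, FABP7, OPTC, PAX6 and ELN were lower. MBP was higher, as were FBLN1 and LOXL2 of the matrix list that held ELN. A sum adds signals of different probes, so its brightest members weigh most. Neither the part of such cells in those differences nor that of single genes in the sums was tested. Of the glial markers 2 were higher and 1 was lower, and of the mesenchymal markers 0 were higher and 1 was lower. In the neuron list, 18 of 35 markers were below 100 on all 6 arrays, 5 were higher (3 with the mean of all probe sets) and 2 were lower, and the sums overlapped, at 11724 to 12271 in E14 and 10237 to 13379 in E7. The endothelial list had 1 call in 20 markers, the barrier gene CLDN5, the lens list had 2 in 19, and the blood list had 2 in 22. The sums of the endothelial, blood, lens and cartilage and muscle lists overlapped between the ages. The calls in the blood list were CSF1R, a receptor of macrophages, with 1759, 2128 and 1988 in E14 cultures, compared with 806, 1076 and 924 in E7 cultures, and CD74, which chaperones class II molecules, with 1885, 1379 and 1887 in E14 and 3444, 2681 and 3125 in E7, while 15 of the 22 markers were below 100 on all 6 arrays. Of 29 cartilage and muscle markers, 3 were higher and 2 were lower, and the higher count was 1 without E14 array 2, E7 array 3 or a mean-variance trend. The lower pair was COL2A1 with 509, 606 and 523 on the E14 arrays, against 2333, 1996 and 2220 on the E7 arrays and chondromodulin (LECT1) with 234, 166 and 167 in E14 cultures, compared with 838, 651 and 966 in E7 cultures.

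To ask whether serum changed the age difference, the difference in SF3 with serum was set against that in SF3 alone, which used 6 other arrays. Without serum, 1558 genes were higher (12%) and 1765 were lower in E14 (13.6%). Of the 1240 genes higher with serum, 67.7% were also higher without it, which was 53.9% of those higher without it. Of the 1468 genes lower with serum, 61.0% were also lower without it, which was 50.7% of those lower without it. In the other direction without serum were 7 of the higher and 10 of the lower genes. In rcSF3, 1092 genes were higher and 1070 were lower in E14. These included 613 of the 1240 higher genes (49.4%) and 572 of the 1468 lower genes (39.0%). That was 56.1% and 53.5% of the genes called in rcSF3. When serum was added to rcSF3, 775 genes were higher and 938 were lower. They included 531 of the 1240 (42.8%) and 575 of the 1468 (39.2%), which was 68.5% and 61.3% of the genes called there. In all 4 media, 339 genes were higher and 286 were lower at E14. SFRP2 differed by 2.12 in SF3 with serum and by 2.12 without it, and PLIN2 by 1.58 and 1.49.

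The test of the interaction found 258 genes whose age difference depended on serum, 94 with a higher value with serum (0.723% of genes) and 164 with a lower one (1.26%). The first count was 53 without E14 array 2, E7 array 2 or E7 array 3, and the pair of counts was 43 and 127 after median centring and 25 and 38 without a mean-variance trend. In 192 of the 258 the age difference was smaller with serum. The difference was called in SF3 alone for 114, with serum alone for 51, in both with the same direction for 75 and in both with opposite directions for 17.

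Cholesterol synthesis and uptake had the highest share of such genes among the lists. Of its 19 genes, 8 had a higher value with serum and 0 had a lower one. The list did not hold the lipoprotein receptor SCARB1, whose interaction was negative (-1.74, given below). Without serum, 1 of the 19 was higher in E14 and 3 were lower. SQLE then had 1633, 1833 and 1602 on the E14 arrays, against 1509, 1853 and 2062 on the E7 arrays, a difference of -0.09 (adjusted p = 0.80), so that the interaction was 1.43 ± 0.23 (log2, SE, adjusted p = 0.0014). NSDHL had 673, 659 and 605 on the E14 arrays, against 529, 516 and 586 on the E7 arrays without serum, and its interaction was 1.22 (adjusted p = 0.0012). Set against the same age without serum, serum raised SQLE by 1.42 in E14 cultures (log2, adjusted p = 1.7e-06) and changed it by -0.01 in E7 cultures (adjusted p = 0.99). For HSD17B7 the interaction was 1.33, for MSMO1 0.94 and for LSS 0.74. LSS did not pass without E7 array 3 (adjusted p = 0.0546). Neither LSS nor MSMO1 passed without a mean-variance trend (adjusted p = 0.086 and 0.0833). Those of DHCR7 (1.30), HMGCS1 (1.27) and INSIG1 (1.24) depended on more of the arrays: the first was lost without any 1 of the 6, and the other pair without E14 array 1, E14 array 2, E7 array 2 or E7 array 3 (adjusted p up to 0.12, 0.088 and 0.067). None of these 3 passed after median centring, with the floor of 100, without a mean-variance trend or in an unmoderated fit (adjusted p = 0.0537 to 0.155). With the mean of all probe sets the interaction of DHCR7 was 0.44 (adjusted p = 0.753) and that of INSIG1 did not pass either (adjusted p = 0.0536). DHCR7 was also lost after quantile normalization (adjusted p = 0.0597).

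In the visual cycle the interaction calls had the opposite sign, with 5 of 16 genes showing a lower value with serum and 0 a higher one. The list as a whole did not, as the median interaction of its 16 genes was 0.01, against 0.85 for the cholesterol list. Without serum, 8 of the 16 were higher in E14. TTR then had 25851, 23724 and 21330 on the E14 arrays, against 5546, 3431 and 4476 on the E7 arrays, a difference of 2.42, and its interaction was -1.66 ± 0.19 (adjusted p = 4.4e-05). STRA6 had 7291, 5928 and 7115 on the E14 arrays, against 3323, 2750 and 3033 on the E7 arrays without serum, a difference of 1.16, and its interaction was -1.29 ± 0.15 (adjusted p = 7.4e-05). RDH11 was higher in E14 without serum, by 0.64 (adjusted p = 0.0017), and lower with serum, at -0.66, a change of sign (interaction -1.30, adjusted p = 0.00084). The interaction of DHRS3, a retinal reductase, was -0.96 (adjusted p = 0.013). It did not pass without a mean-variance trend (adjusted p = 0.0917), in an unmoderated fit (adjusted p = 0.057) or with the mean of its probe sets (adjusted p = 0.0974). That of RPE65 was -0.72 (adjusted p = 0.024), which was lost without E14 array 1 (adjusted p = 0.0644) or E7 array 2 (adjusted p = 0.0556). It was also lost with only the 12 arrays of SF3, without a mean-variance trend or in an unmoderated fit (adjusted p = 0.0653, 0.122 and 0.0726). In E7 cultures, serum raised STRA6 by 2.34, RDH11 by 2.62 and TTR by 1.59 on the log2 scale, and in E14 cultures it raised STRA6 by 1.05 and RDH11 by 1.31, while TTR differed by -0.06 (adjusted p = 0.84).

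**Figure D5:**
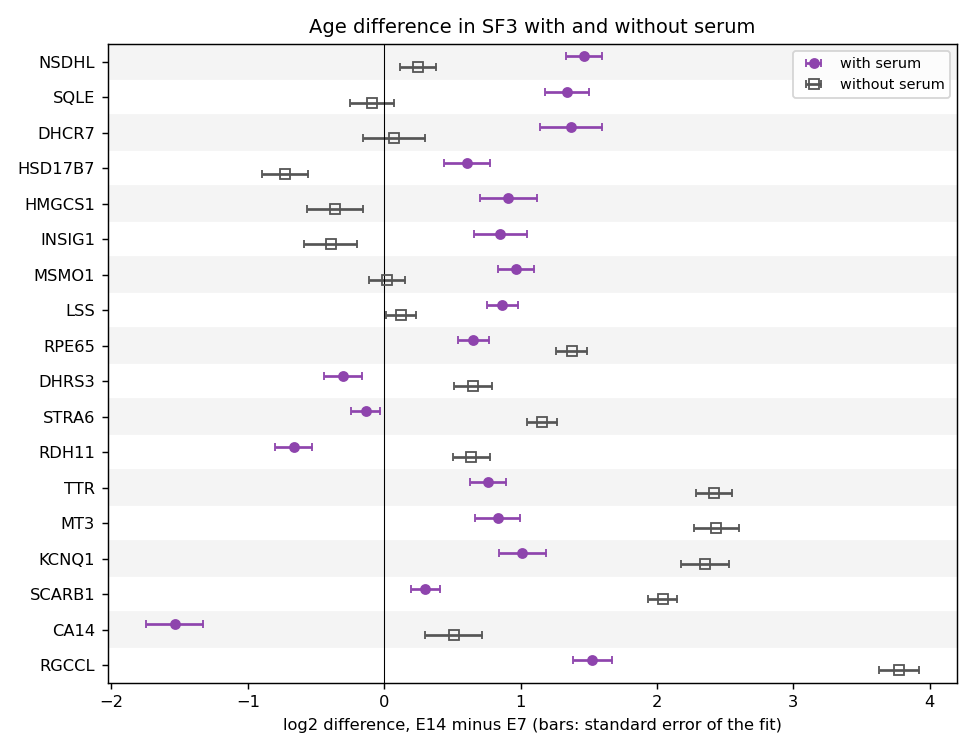
Age difference (log2, E14 minus E7) of 18 genes in SF3 with serum, as filled circles above, and in SF3 without serum, as open squares below, with bars of 1 standard error. All 18 passed the interaction test. The 8 cholesterol genes at the top lie further to the right with serum. The 5 visual cycle genes and the 5 others below them lie further to the left.

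Ranked after signals below 100 were raised to 100, the 6 largest interactions with a lower value with serum were those of NTRK3, a neurotrophin receptor (-4.00), DCX, a microtubule protein of young neurons (-2.45), RGCCL (-2.25), GSC, a homeobox factor (-2.15), CA14 (-2.05) and SCARB1, a lipoprotein receptor that also takes up carotenoids (-1.74). These values, and those given below, are as measured. With the floor of 100 the interaction was -2.67 for NTRK3 and 2.77 for HESX1, and that of DCX, at -2.03, did not pass (adjusted p = 0.102). With serum, SCARB1 had 25551, 26260 and 28150 in E14 and 18663, 23858 and 22653 in E7, a difference of 0.30 (adjusted p = 0.065). Without serum it had 12516, 9424 and 13214 on the E14 arrays, against 3032, 2451 and 2998 on the E7 arrays, a difference of 2.04 (adjusted p = 1.6e-12). Whether its signals with serum were too bright to show a larger difference was not tested. The age difference of SCARB1 with serum passed the test without E7 array 2 (adjusted p = 0.0435), after quantile normalization (adjusted p = 0.0147) and among genes with a mean signal of at least 100 (adjusted p = 0.0322). RGCCL had 13614, 14579 and 14811 on the E14 arrays, against 4082, 5305 and 5692 on the E7 arrays with serum. Without serum it had 7863, 9315 and 8554 on the E14 arrays, against 477, 708 and 723 on the E7 arrays, so that its E7 cultures were far dimmer without serum. Its age difference with serum did not pass with the mean of its probe sets (adjusted p = 0.135). CA14 was lower in E14 with serum and had 404, 301 and 471 on the E14 arrays, against 249, 309 and 258 on the E7 arrays without it, where its difference of 0.51 did not pass (adjusted p = 0.10). The interactions of KCNQ1 and MT3 were also negative, at -1.34 and -1.60. The 6 largest with a higher value with serum were those of HESX1, a repressor of the early forebrain and eye (4.36), the chemokine receptor CXCR4 (3.21), the muscarinic receptor CHRM4 (2.76), MDK (2.12), CDCA3 (2.06) and POF1B (1.88). HESX1 and CXCR4 were dim in the cultures with serum. HESX1 had 68.9, 104 and 86.2 in E14 and 72.0, 23.3 and 55.7 in E7. CXCR4 had 10.5, 39.5 and 53.2 in E14 and 113, 50.6 and 99.9 in E7. Their log2 age differences with serum, 0.91 and -1.56, were below their interactions, so their age differences without serum were negative. MDK, COL2A1 and LECT1 were lower in E14 in both media, and less so with serum: MDK differed by -2.18 with serum and -4.30 without it, COL2A1 by -2.0 (-1.04 with the mean of its probe sets) and -3.09, and LECT1 by -2.12 and -3.86. The interaction calls of HESX1, CA14, SCARB1, MT3 and LECT1 held without any 1 of the 6 arrays with serum and in every other alternative that gave a value for them. Those of CHRM4, RGCCL, KCNQ1 and COL2A1 held without any 1 of these 6 arrays, but with the mean of all probe sets none of them passed. The interaction was then 2.37 for CHRM4 (adjusted p = 0.147), -1.03 for RGCCL (adjusted p = 0.382), -1.36 for KCNQ1 (adjusted p = 0.198) and 0.88 for COL2A1 (adjusted p = 0.332). Those of the others depended on single arrays. None of them passed without a mean-variance trend (adjusted p = 0.0671 to 0.13) or in an unmoderated fit (adjusted p = 0.054 to 0.116). DCX, CXCR4 and POF1B also did not pass with only the 12 arrays of SF3 (adjusted p = 0.0615 to 0.0769). Nor did DCX, CDCA3 and POF1B with the mean of all probe sets (adjusted p = 0.16 to 0.385), and POF1B did not after median centring or with the floor of 100 (adjusted p = 0.064 and 0.0677). NTRK3 was lost without any array but E14 array 2 (adjusted p up to 0.089), DCX without E14 array 2 or E7 array 1 (up to 0.072), and GSC without E14 array 1 or E7 array 1 (up to 0.070). CXCR4 was lost without E14 array 2, E14 array 3, E7 array 2 or E7 array 3 (up to 0.12), and MDK without E14 array 2, E14 array 3, E7 array 1 or E7 array 2 (up to 0.080). CDCA3 was lost without E14 array 2, E14 array 3 or E7 array 2 (up to 0.10), and POF1B without E14 array 1, E7 array 1 or E7 array 2 (up to 0.088). The age difference of NTRK3 with serum (adjusted p = 0.027) was lost without E14 array 1, E14 array 3, E7 array 1 or E7 array 2, without a mean-variance trend (adjusted p = 0.0684) and in an unmoderated fit (adjusted p = 0.0751). That of CHRM4 (adjusted p = 0.0068) was lost without E14 array 2 (adjusted p = 0.0599). The age differences of HESX1, CXCR4 and POF1B with serum did not pass (adjusted p = 0.22, 0.068 and 0.23). CXCR4 did without E14 array 3 or E7 array 2 (adjusted p = 0.0309 and 0.049) and POF1B without E7 array 3 (adjusted p = 0.0304).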

How the data were processed

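RNA of 24 samples, each pooled from 6 filters, was hybridized to Affymetrix chicken genome arrays, 1 array each. The deposited intensity of each probe set was made by the authors with GeneChip Operating Software, which scaled every array to one target. The trimmed mean, computed here without the highest and lowest 2%, was 500.1 on all 24 arrays. Intensities depend on the probe, so levels were not compared between genes. Detection calls were not used here, and 0 columns belonged to other samples.

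The intensity was taken as log2. Of 38535 probe sets, 96 controls were left out, and 8 groups of 3 arrays were fitted with limma 3.58.1 in R 4.3.3, with a mean-variance trend. P-values were adjusted by Benjamini-Hochberg over all 38439 probe sets, with a threshold of 0.05. Contrasts were E14 minus E7 in SF3 with serum, the same in the other media, and the difference of that in SF3 with serum and in SF3 (the interaction). Every adjusted p in the text comes from these fits unless an alternative is named beside it. The fit of that alternative then gave the value, adjusted over the probe sets or genes it tested. The fit was tested on simulated data. Tables and plots used Python 3.11.15, pandas 2.3.3, numpy 2.4.6 and matplotlib 3.10.9.

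Gene symbols came from the array's annotation: 27168 probe sets had 1 symbol, 177 had several and 11094 had none here. By gene ID, 26853 matched RefSeq, which changed 0 symbols. The brightest probe set with 1 symbol over 24 arrays stood for each of 13009 genes. Named were the 15 largest differences in each direction among genes that passed and whose groups did not overlap, ranked with signals below 100 raised to 100, the 6 largest interactions in each direction ranked alike, the 2 to 6 members of a described list that had the smallest p in a direction, defining RPE genes, and genes the study named for its arrays. These lists were chosen with earlier results of these data known. The alternatives were other samples in the fit, scalings, a filter and a floor at 100, the replicate number as a block, a fit without the mean-variance trend, an unmoderated fit of the 8 groups, the mean of all probe sets of a gene, and leaving out each of the 6 arrays.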

Additional observations from a re-analysis of the deposited data

Results flagged for a closer look

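For 29 of the genes named above, the age difference with serum differed from that without serum by the test of the interaction itself, the difference of both log2 differences (limma, 24 arrays).

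In cholesterol synthesis, the interaction was 1.43 for SQLE, 1.33 for HSD17B7, 1.30 for DHCR7, 1.27 for HMGCS1, 1.24 for INSIG1, 1.22 for NSDHL, 0.94 for MSMO1 and 0.74 for LSS. All 8 were positive, the signed age value (E14 minus E7) being higher with serum. In the visual cycle it was -1.66 for TTR, -1.30 for RDH11, -1.29 for STRA6, -0.96 for DHRS3 and -0.72 for RPE65, each negative.

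Among the other genes with a negative interaction it was -4.00 for NTRK3, -2.45 for DCX, -2.25 for RGCCL, -2.15 for GSC, -2.05 for CA14, -1.74 for SCARB1, -1.60 for MT3 and -1.34 for KCNQ1. Among those with a positive one it was 4.36 for HESX1, 3.21 for CXCR4, 2.76 for CHRM4, 2.12 for MDK, 2.06 for CDCA3, 1.88 for POF1B, 1.74 for LECT1 and 1.09 for COL2A1. No cause of these differences was tested.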

How the results depend on the processing

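The counts of genes and probe sets higher and lower in E14 stayed within 1.5 times the reported counts under every alternative run, at 1785 to 2611 probe sets higher and 1830 to 2937 lower. Of 30 genes with the largest differences, 27 passed in every alternative that gave a value for the gene, as did 145 of the 181 named genes that passed. Up to 17 alternatives gave one: the filter left out dim genes, and a gene with 1 probe set has no other mean. The exceptions among the 30 were TPH1, GNB3 and FGF1. SERPINF1 changed sign, to 0.39, with the mean of all its probe sets, a value that did not pass (adjusted p = 0.152). The cause was not tested.

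The 94 genes with a higher signed age value (E14 minus E7) with serum became 62 with only the 12 arrays of SF3. They became 43 after median centring, 148 with a mean signal of at least 100, and 25 without a mean-variance trend. They numbered 53 to 90 with any 1 of the 6 arrays with serum left out. The 164 genes with a lower one became 38 without the trend and 97 with the mean of all probe sets. With any 1 of those 6 arrays left out, they numbered 110 to 152. The arrays of SF3 without serum, which the interaction also uses, were not left out in turn. Of 29 named interactions, 11 passed in every alternative that gave a value. The filter tested fewer probe sets, and the fit of 12 arrays used fewer arrays. The cause of these shifts was not tested.

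Same-numbered arrays of both ages in SF3 with serum deviated from their group means with a correlation of -0.037 to 0.032 over 3 pairs. The correlation was taken over probe sets with a mean signal of at least 100. It cannot exclude a shared deviation in a smaller set of genes. Same-numbered arrays with and without serum were not compared in this way. With a replicate block, 2469 probe sets were higher and 2650 lower over 24 arrays, and 1844 and 1930 over 6 arrays. Each group had 3 arrays, which limits the precision, and differences below a signal of 100 were poorly measured.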

Other observations

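Further lists were read in the same fit. Of 30 genes of stress and chaperones, 1 was higher and 6 were lower in E14. HSPA4, a relative of the cytosolic chaperone HSP70, had 3808, 3912 and 3858 in E14 cultures, compared with 6046, 5500 and 6163 in E7 cultures (log2 -0.61, adjusted p = 4.5e-07). HSPA5, the main chaperone of the endoplasmic reticulum, had 4332, 3985 and 3852 in E14 and 5081, 5075 and 5323 in E7, and GADD45A, a growth arrest gene, had 3771, 3262 and 3570 on the E14 arrays, against 4624, 4501 and 5164 on the E7 arrays. Both lay lower in every E14 culture, HSPA5 not by the test after median centring (adjusted p = 0.0544). SESN1, which restrains growth signals under stress, was the only higher member, with 5628, 5676 and 5996 in E14 cultures, compared with 4143, 4196 and 4191 in E7 cultures.

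Of 14 genes of retinoic acid synthesis and response, 2 were higher and 1 was lower. The synthetic enzyme ALDH1A2 had 220, 245 and 302 in E14 and 113, 88.6 and 92.9 in E7, and its relative ALDH1A3 had 797, 936 and 1114 on the E14 arrays, against 2395, 1621 and 1713 on the E7 arrays, so the enzymes differed in opposite directions. The call of ALDH1A3 was lost without E14 array 1 or E7 array 1 (adjusted p = 0.0667 and 0.0854), and without a mean-variance trend or in an unmoderated fit (adjusted p = 0.0508 and 0.0518). Of 15 Eph receptors and ephrins, 1 was higher and 3 were lower. The median log2 difference was 0.26, with 10 of the 15 above 0, so the lower genes named here do not stand for the list. EFNB1, a ligand, had 893, 608 and 936 in E14 cultures, compared with 1438, 1383 and 1460 in E7 cultures (log2 -0.84, or -0.54 with the mean of its probe sets), and its receptors EPHB1 and EPHB2 differed by -1.0 and -0.68. Among 8 connexins, 0 were higher and 1 was lower: GJA1, the main gap junction protein of RPE, had 7517, 6522 and 6076 in E14 and 9189, 7792 and 7822 in E7. That call was lost without E14 array 3 or E7 array 1 (adjusted p = 0.09 and 0.0909), in a fit of the 6 arrays, after median centring and without a mean-variance trend (adjusted p = 0.0819, 0.0894 and 0.0606).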
